A study of Homo sapiens with 80 samples.

Results

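The wells described here are the high and low purity wells of days 10 and 13 of cardiomyocyte differentiations of WTC11, a line of induced pluripotent stem cells. They were taken by name: every high purity and every low purity well with a column of TPM, a level scaled for gene length and depth, on those 2 days. This gave 11 wells of the 56 in the multi-omic experiment and of the 80 samples in the whole series. The high purity class had 1 well on day 10 (well 2) and 2 wells on day 13 (wells 2 and 3). The low purity class had 4 wells on each day (wells 1 to 4).

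All 11 wells held the same line under the same sequence of agents. Cells were seeded on Matrigel in 12-well plates and given CHIR99021, which activates WNT signalling, on day 0. On day 2 they were given IWP2, which blocks WNT secretion. The RPMI medium carried B27 without insulin up to day 6 and B27 with insulin from then on, so all wells had insulin on days 10 and 13. The class was set on day 16, after these wells had been collected, by flow cytometry of cells stained for cardiac troponin T. High purity wells belong to 1 differentiation at passage 52 and low purity wells to another at passage 69. The effects of class, of passage and of the single differentiation cannot be told apart, and the p-values below measure the spread between wells of a differentiation. RNA of each well was sequenced with a stranded poly(A) kit.

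In this kind of differentiation WNT activation turns pluripotent cells into mesoderm, and WNT inhibition then directs part of that mesoderm to cardiac progenitors. By the days sampled here, progenitors have become young cardiomyocytes that assemble sarcomeres and beat. Cells that did not become cardiomyocytes can remain beside them as fibroblast-like, epicardial, smooth muscle, endothelial or endoderm cells.

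Reads recovered from the TPM numbered 8370664 to 9031353 a well in the high purity class and 9011355 to 14526196 in the low. RN7SK, a small nuclear RNA without a poly(A) tail, held 15.1% to 16.4% of TPM in the high and 6.39% to 9.81% in the low class. RNR2, a mitochondrial ribosomal RNA, held 21.2% to 25.0% and 17.8% to 21.7%. Of 4 RNAs tested from a list of non-coding RNAs of this kind (7 listed), RMRP (1.47) and RNR1 (1.18) passed the thresholds given below as higher in high purity wells (median log2 fold change 1.20). RNR1 was not abundant, with 46 to 336 reads a well against 749788 to 1581002 for RNR2. With TPM computed again without the mitochondrial RNAs, RN7SK and RN7SL, and with no further scaling, 3320 genes were called against 2807, of which 2726 were shared, and 35.2% of the 3320 were higher in the high class. Among the cardiomyocyte genes below, MYL7 then lost its call (0.93). Fold changes were computed on TPM scaled by the trimmed mean of M-values (TMM), with factors of 0.822 to 0.876 in the high and 0.966 to 1.12 in the low class. No pair of wells agreed within sampling noise. By sampling noise in the reads, well 1 of the low purity class on day 13 stood furthest from its group, with a chi-square per degree of freedom of 6.39 to 10.2 against the others, which differed among themselves by 2.75 to 5.62. By the root mean square log2 distance from the other wells of its group, well 2 was the furthest (0.485 against 0.443 to 0.459). The deposited counts of this experiment were not used, since 0 of their 56 columns matched the TPM under its own name. The high purity well of day 10 was among the 6 TPM columns with no match in the count table under any name. All 11 wells held cardiac RNA: MYH6, the alpha myosin heavy chain, was at 309 to 4356 TPM in them and at 0 to 0.457 TPM in the 8 wells of day 0.

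Of 21030 genes tested on days 10 and 13 together, 1118 were higher and 1689 lower in high purity wells. A gene was counted when its adjusted p was under 0.05 and its log2 fold change at least 1 in either direction, in a limma fit with day as a covariate. That is 13.3% of the genes tested, 5.32% higher and 8.03% lower, so 39.8% of the calls were higher. Without TMM scaling the numbers were 700 higher (3.33%) and 2444 lower (11.6%), and 22.3% of the calls were higher. The median log2 fold change of all genes tested was -0.03 with TMM scaling and -0.28 without it. Groups did not overlap on either day for 4103 genes that were higher (19.5% of those tested) and 4435 that were lower (21.1%), on scaled TPM. Genes entered the test with at least 1 TPM in at least 3 of the 11 wells. Of the tested genes 750 had fewer than 3 low purity wells at that level and needed the high purity wells to pass, and 190 of these were called higher. Likewise 5186 had fewer than 3 high purity wells at that level and needed the low purity wells, and 862 of these were called lower. Some genes are in both counts. For such genes the direction is partly set by the filter. Of the 15610 that had 3 such wells in each class, 924 were called higher and 827 lower. In bulk samples fewer cells of a type and less RNA per cell cannot be told apart.

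The 10 largest increases in high purity wells included 3 genes of the surface ectoderm and amnion list (GABRP, VTCN1 and TFAP2A) and 2 of the endothelial list (ESM1 and PLVAP). The 10 largest decreases included DCN of the fibroblast and matrix list, WT1 of the epicardial list and CFI of the complement list. High purity values are given below in the order day 10 well 2, day 13 well 2, day 13 well 3, as deposited TPM, and the 8 low purity wells by their lowest, median and highest value. GABRP (chr5:170782720-170814047 by RefSeq on GRCh38.p14), a subunit of the GABA-A receptor found in epithelia and amnion, was at 31.6, 37.2 and 52.6 TPM in high purity wells and at 0, 0.204 and 1.13 TPM in low purity wells. Its log2 fold change was 5.14 (SE 0.28). VTCN1, an immune checkpoint ligand that is also an amnion and trophoblast marker, had a log2 fold change of 4.67 (SE 0.16). ESM1, a proteoglycan secreted by endothelial cells, followed at 4.26, LPL, the lipase that frees fatty acids from lipoproteins, at 4.19, and TFAP2A, a transcription factor of ectoderm, at 4.11. The other 5 of the 10 largest were IRX1 (3.90) and IRX4 (3.33), Iroquois homeobox factors, CA3, a muscle carbonic anhydrase (3.78), PLVAP, a protein of endothelial diaphragms (3.52), and KLHL14 (3.44). These 10 were chosen for their size and for groups that did not overlap, so their values describe the top of the ranking. GABRP, VTCN1, ESM1, LPL and TFAP2A needed the high purity wells to pass the filter.

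On the low purity side HPCAL4 (chr1:39678648-39691433), a neuronal calcium sensor, was at 0.203, 0 and 0.510 TPM in high and at 53.2, 65.2 and 121 TPM in low purity wells. Its log2 fold change was -5.79 (SE 0.21). DCN, the matrix proteoglycan decorin, had a log2 fold change of -5.76 and MGP, an inhibitor of calcification in matrix, of -5.53. RSPO2, a secreted amplifier of WNT signalling, was at -5.26 and NPNT, a ligand of integrins in basement membranes, at -5.06. The other 5 of the 10 were the complement protease CFI (-4.98), the epicardial factor WT1 (-4.88), the homeobox gene HOXC8 (-4.81), the phosphate transporter SLC34A2 (-4.81) and TTC29 (-4.80). Of these 10, all but NPNT, WT1 and SLC34A2 needed the low purity wells to pass the filter. CFI had 2 reads in the 3 high purity wells together and 3046 in the 8 low purity wells, a depth-adjusted ratio of 417 with a 95% counting interval of 115 to 3444. HOXC8 had 2 and 2257 reads, a ratio of 309 (85.4 to 2552). Among non-coding genes LINC00379 (3.80) and the microRNA gene MIR208A (3.61) were the highest by the same rule. Both needed the high purity wells to pass the filter. MIR208A lies inside MYH6 and had 0 to 4 reads a well, and its groups overlapped on deposited TPM. The lowest were MIR4275 and LOC105374559 (-5.25), which both needed the low purity wells to pass the filter. MIR4275 had 0 reads in the high purity wells and 150 in the low purity wells. It was at least 13.7-fold lower against a floor of 3 counts over the class.

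Of 32 sarcomere genes tested, 19 were called higher in high purity wells and 1 lower. Of 9 thick filament genes tested (11 listed), 6 were called higher and 0 lower, with a median log2 fold change of 1.10. Of 10 thin filament genes, 6 were called higher and 1 lower (median 1.31), and of 13 Z-disc and titin scaffold genes tested, 7 were higher and 0 lower (median 1.15). Without TMM scaling 15 of the 32 were called higher: 4 of 9 (median 0.81), 5 of 10 (1.02) and 6 of 13 (0.91). Among all genes 5.32% were called higher and the median was -0.03. Markers of stromal cells moved the other way over the same wells, as given further on: the summed TPM of 15 fibroblast and matrix genes ranged from 3087 to 4415 over the high and from 11024 to 15700 over the low class. Its part in the sarcomere result was not tested. The plot of 12 genes by well shows the single values.

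**Figure D1:**
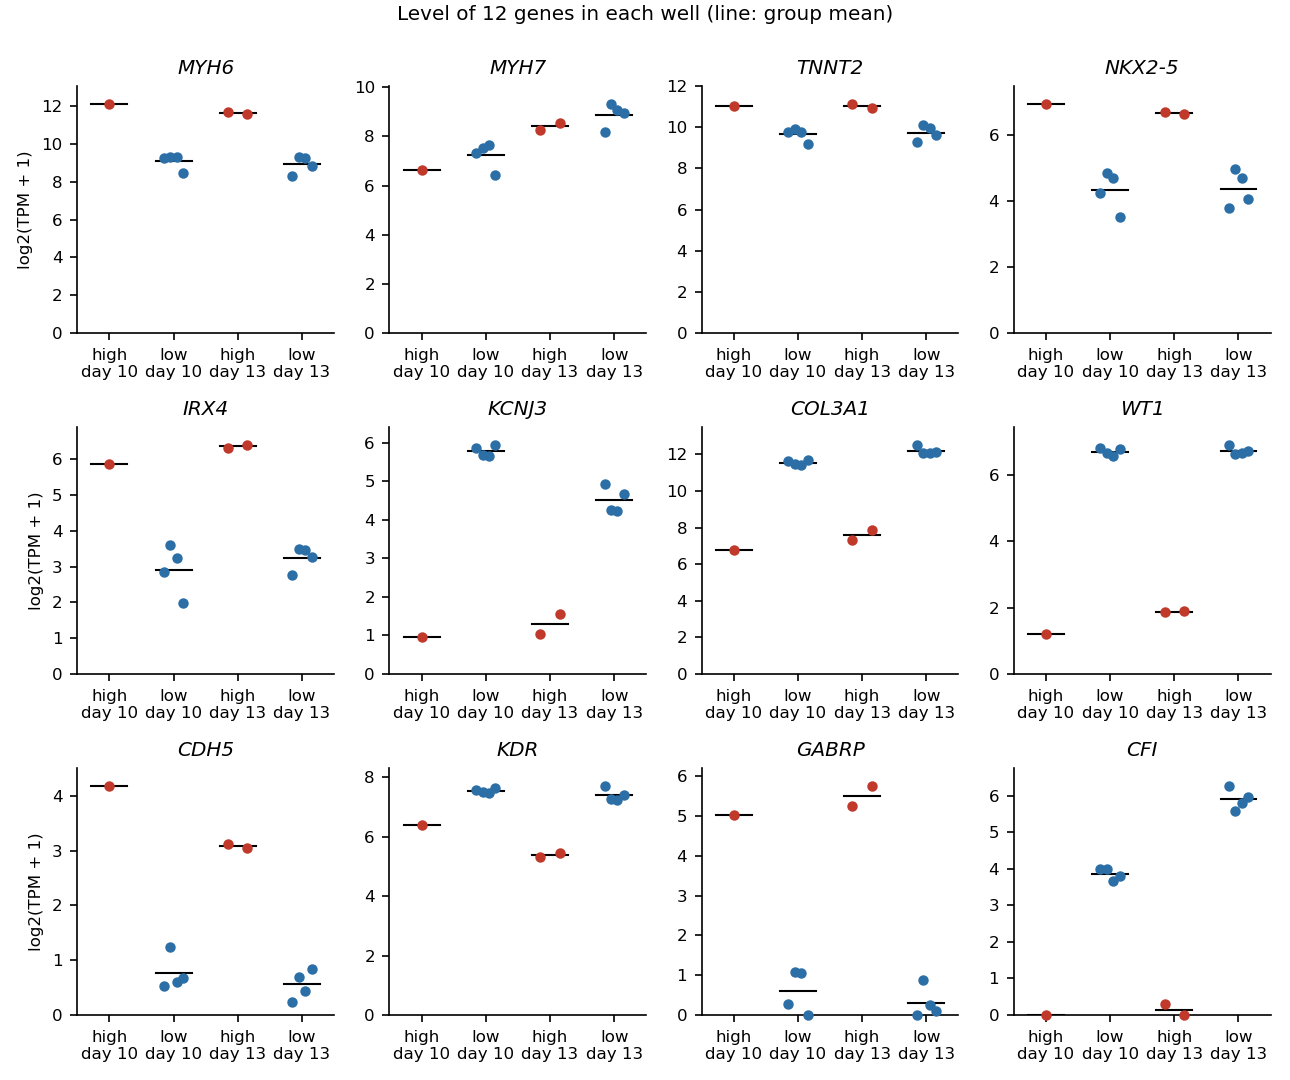
Level of 12 genes in each well, as log2(TPM + 1) of deposited TPM on the vertical axis, by day and purity class (red, high purity; blue, low purity; black lines, group means of the log values, with 1 high purity well on day 10). MYH6, TNNT2, NKX2-5 and IRX4 lay higher in every high purity well, COL3A1, WT1, KCNJ3 and CFI lower, and the classes overlapped on both days for MYH7.

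The promoters of 2 contractile genes that were higher and of 2 genes that were lower in high purity wells are shown. For MYH7, IRX4 and DCN the promoter reference gave no single entry, so theirs are not shown. Each is the 250 bases before the RefSeq start on GRCh38.p14, 5′ to 3′ on the strand of the gene. By RefSeq the genes span chr14:23381987-23408273 (MYH6), chr1:201359014-201377680 (TNNT2) and chr2:154698695-154858354 (KCNJ3). Capitals mark matches, on either strand, to AGATAA, the motif of GATA factors, CTANNNNTAG, that of MEF2 factors, CATTCC, that of TEAD factors, TCACACC, that of T-box factors, or TATAAA, the box of that name. These motifs do not overlap one another in the sequences shown.
MYH6, chr14:23408274-23408523, minus strand: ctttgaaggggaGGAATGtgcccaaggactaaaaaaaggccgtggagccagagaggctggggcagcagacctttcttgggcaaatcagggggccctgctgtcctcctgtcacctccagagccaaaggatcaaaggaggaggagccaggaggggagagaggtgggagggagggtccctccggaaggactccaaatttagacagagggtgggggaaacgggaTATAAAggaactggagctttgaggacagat
TNNT2, chr1:201377681-201377930, minus strand: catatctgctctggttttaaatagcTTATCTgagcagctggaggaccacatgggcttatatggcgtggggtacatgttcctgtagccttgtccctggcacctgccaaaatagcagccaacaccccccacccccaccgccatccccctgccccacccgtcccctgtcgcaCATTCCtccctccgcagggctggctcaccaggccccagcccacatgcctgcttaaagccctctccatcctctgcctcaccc
KCNJ3, chr2:154698445-154698694, plus strand: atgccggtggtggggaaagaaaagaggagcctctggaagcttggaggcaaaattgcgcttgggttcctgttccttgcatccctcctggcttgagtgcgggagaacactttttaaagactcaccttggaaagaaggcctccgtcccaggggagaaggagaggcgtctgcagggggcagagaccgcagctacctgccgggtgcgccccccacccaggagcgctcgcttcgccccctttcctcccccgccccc
HPCAL4, chr1:39691434-39691683, minus strand: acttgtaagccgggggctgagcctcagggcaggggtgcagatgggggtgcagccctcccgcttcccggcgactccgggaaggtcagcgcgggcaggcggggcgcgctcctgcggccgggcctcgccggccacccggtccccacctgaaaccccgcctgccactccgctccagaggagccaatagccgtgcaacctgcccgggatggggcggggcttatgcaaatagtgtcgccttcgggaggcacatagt
The MYH6 promoter held TATAAA from 30 to 25 bases before the start and CATTCC in reverse from 238 to 233 bases before it. In the TNNT2 promoter AGATAA matched in reverse from 225 to 220 bases before the start and CATTCC from 81 to 76 bases before it. No match was found in the KCNJ3 and HPCAL4 windows, which says only that these letters are not there. Of 35116 promoters of this length in RefSeq, 9.17% held AGATAA, 2.36% CTANNNNTAG, 10.7% TATAAA, 11.9% CATTCC and 2.76% TCACACC.

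MYH6, the fast myosin heavy chain that is the main one of atria and of the early heart tube, was at 4356 TPM in the high purity well of day 10 and at 3255 and 3070.1 TPM in those of day 13. In low purity wells it was at 616, 633, 641 and 348 TPM on day 10 and at 309, 638, 598 and 458 TPM on day 13. Every high purity well was above every low purity well, and the fold change on the log2 scale was 3.11 (SE 0.25, adjusted p = 3.40e-06). MYH7, the slow myosin heavy chain that becomes the main one of ventricles, was not called. It was at 99.2 TPM in the high purity well of day 10 and at 161, 185, 199.8 and 86.1 TPM in the low purity wells. On day 13 it was at 307 and 372 TPM in high and 287, 632, 543 and 498 TPM in low purity wells, so the groups overlapped on both days. Its log2 fold change was -0.23 (SE 0.28, adjusted p = 0.533). The other called thick filament genes were the light chains MYL4 (1.61), MYL3 (1.58) and MYL7 (1.01), the myosin binding protein MYBPC3 (1.52) and the M-band protein MYOM1 (1.10). MYL7, the atrial light chain, was at 2430.5, 1839.9 and 2044 TPM in high and 765, 1209 and 1601 TPM in low purity wells. Its call was lost without TMM scaling (0.72), on day 13 alone (0.65) and without the day 10 high purity well (0.65). It was also lost without well 4 of low purity day 10 (0.93) and without well 1 of low purity day 13 (0.94). MYOM1 was lost without TMM scaling (0.81), on day 13 alone (0.98) and without the day 10 high purity well (0.98), so that 4 of the 9 were called under each of these 3. MYL2, the ventricular light chain, was at or below 3.61 TPM in all 11 wells and its log2 fold change was -0.03 (adjusted p = 0.959).

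TNNT2 is the gene of cardiac troponin T, which the flow cytometry of day 16 measured. Its RNA was at 2101, 2226 and 1934 TPM in high purity wells and at 873, 984, 880.3 and 591 TPM on day 10 and 634, 1106, 985 and 788 TPM on day 13 in low purity wells. The groups did not overlap (log2 fold change 1.60, SE 0.19, adjusted p = 5.22e-05). TNNI1, the slow skeletal troponin I that precedes the cardiac form in the heart, was at 534, 494 and 531 TPM against 194, 231 and 247 TPM in low purity wells (log2 fold change 1.50, SE 0.10, adjusted p = 6.40e-07). TNNI3, the adult cardiac troponin I, was lower in level in both classes, at 153, 129 and 151 TPM and 19.2, 49.3 and 95.8 TPM (log2 fold change 1.63, SE 0.36, adjusted p = 0.00325). For both, every high purity well was above every low purity well. The largest change on the thin filament was in TNNC1, the calcium sensing troponin C, at 1.97, followed by NEBL, a thin filament anchor at the Z-disc, at 1.88. TNNT1, the slow skeletal troponin T, was the called member that fell, with 35.8, 36.4 and 35.0 TPM in high and 70.3, 95.1 and 118 TPM in low purity wells (log2 fold change -1.13; not called on day 10 alone, at -0.67). ACTC1, cardiac actin, missed the fold threshold at 0.87 (adjusted p = 4.45e-04).

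At the Z-disc ACTN2, the cardiac alpha-actinin that cross-links actin, was at 535, 661 and 679 TPM in high purity wells and at 111, 184 and 262 TPM in low purity wells. Its groups did not overlap (log2 fold change 2.07, SE 0.20, adjusted p = 1.20e-05). TCAP, which caps titin at the Z-disc, rose by 1.95 and XIRP1, an actin binding protein of intercalated discs, by 1.75. TTN, the titin spring itself, was at 331, 787 and 652 TPM in high and 228, 330.1 and 479 TPM in low purity wells. Its log2 fold change of 0.99 was just under the threshold, and the groups overlapped on day 10.

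Calcium handling genes moved in the same direction where they were called: 5 of 12 were higher and 0 lower, with a median of 0.71. HRC, a calcium binding protein of the sarcoplasmic reticulum, was at 170.4, 149 and 130.1 TPM in high and 15.9, 32.9 and 57.0 TPM in low purity wells, without overlap (log2 fold change 2.40, SE 0.32, adjusted p = 1.12e-04). SRL, sarcalumenin, rose by 1.94, TRDN, which anchors the release channel, by 1.68, the sodium calcium exchanger SLC8A1 by 1.43 and the release channel RYR2 by 1.16. PLN, the inhibitor of the calcium pump, was at 186, 534 and 528 TPM against 177, 271 and 401 TPM and missed the fold threshold (0.60, adjusted p = 0.00507), with overlap on deposited TPM on day 10. SLN, the related inhibitor of atrial muscle, was at 8.07 TPM in the high purity well of day 10 and at 19.9 to 32.3 TPM in the 4 low purity wells. On day 13 it was at 15.1 and 14.3 TPM in high and 5.29, 1.96, 6.51 and 7.16 TPM in low purity wells. SLN was thus lower in the high purity well on day 10 and higher in both high purity wells on day 13, without overlap on either day.

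Ion channel genes were split. Of 14 tested, 5 were called higher and 2 lower (median 0.54). The inward rectifiers KCNJ2 (1.73) and KCNJ5 (1.71) and the calcium channel CACNA1D (1.55) had the largest positive values, and KCNJ2 needed the high purity wells to pass the filter. KCNJ3, which pairs with KCNJ5 in the acetylcholine gated potassium channel of atria, went the opposite way. It was at 0.928, 1.06 and 1.93 TPM in high purity wells, and in the low class at 56.8, 49.9, 49.5 and 60.0 TPM on day 10 and 29.3, 18.2, 17.9 and 24.5 TPM on day 13. Every low purity well was above every high purity well (log2 fold change -3.64, SE 0.27, adjusted p = 1.66e-06), and KCNJ3 needed the low purity wells to pass the filter. GJA1, connexin 43, fell by 1.72 with the groups apart, at 129, 117 and 153 TPM against 473, 520.1 and 654 TPM.

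Among 15 cardiac transcription factors 7 were called higher and 2 lower (median 0.67). NKX2-5 (chr5:173232109-173235206), the homeobox factor of cardiac progenitors and cardiomyocytes, was at 121, 102 and 98.8 TPM in high purity wells. Low purity wells held 17.8, 27.9, 25.0 and 10.3 TPM on day 10 and 12.8, 30.4, 24.7 and 15.6 TPM on day 13. No low purity well reached the lowest high purity well (log2 fold change 2.70, SE 0.31, adjusted p = 3.96e-05). SMYD1, a muscle methyltransferase, rose by 2.03 and TBX3, a T-box factor of the conduction system, by 1.91. TBX18, a T-box factor of epicardium and sinus horn, was the largest change of the list. It was at 4.62, 10.0 and 12.5 TPM in high and 146, 171 and 201 TPM in low purity wells, again without overlap (log2 fold change -3.93, SE 0.19, adjusted p = 6.60e-08). HAND1, a basic helix-loop-helix factor of the first heart field, was called lower (-1.11). That call was lost on day 13 alone (-0.94) and without the day 10 high purity well (-0.94). GATA4, a zinc finger factor of heart and endoderm, was at 74.0, 78.7 and 79.2 TPM in high and 126, 136 and 146 TPM in low purity wells and was not called (-0.53, adjusted p = 4.44e-05).

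Of 12 chamber genes 5 were called higher and 0 lower (median 0.45), 1 of them MYL7. IRX4 (chr5:1877413-1887179), a ventricular homeobox factor, was at 57.4, 79.0 and 82.7 TPM in high and 2.93, 8.57 and 11.1 TPM in low purity wells. Its groups did not overlap (log2 fold change 3.33, SE 0.29, adjusted p = 5.20e-06). IRX3, of the ventricular conduction system, rose by 3.15 and the Notch target HEY1, a repressor in atrial myocardium, by 2.22. The natriuretic peptides themselves were not called. NPPA was at 56.8, 32.3 and 29.9 TPM against 22.9, 33.5 and 54.0 TPM in low purity wells (0.51, adjusted p = 0.146), and NPPB at 46.2, 79.3 and 94.3 TPM against 86.7, 115 and 166 TPM (-0.41, adjusted p = 0.139). CORIN, the protease that cleaves the NPPA precursor, was the 1 called member of this list of 5 (median 0.25), at 2.15.

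Of 17 genes tested for fatty acid use and mitochondrial supply (18 listed), 7 were called higher and 0 lower (median 0.62). LPL was at 12.2, 19.1 and 30.2 TPM in high purity wells, at 0.312, 1.40, 0.472 and 0.461 TPM on day 10 and 0.0714, 0.239, 0.120 and 0 TPM on day 13 in low purity wells, and so needed the high purity wells to pass the filter. COX6A2, the muscle form of a cytochrome c oxidase subunit, rose by 2.91 and MB, the oxygen store myoglobin, by 2.35. For MB the values were 87.1, 88.2 and 88.2 TPM in high and 9.17, 17.9 and 36.0 TPM in low purity wells, without overlap. The enzymes ACADM and HADHA of mitochondrial beta-oxidation were not called, at 0.35 and 0.51.

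Matrix and stromal genes were lower in high purity wells. Of 15 fibroblast and matrix genes tested, 11 were called lower and 0 higher, and the median was -2.34, beside 8.03% called lower and a median of -0.03 among all genes. COL3A1 (chr2:188974373-189012746), a fibrillar collagen, was at 109.7, 158 and 233 TPM in high purity wells. It was at 3148, 2803, 2692 and 3278 TPM on day 10 and 5752, 4289, 4235 and 4482 TPM on day 13 in low purity wells, more than any high purity well in all 8 (log2 fold change -4.36, SE 0.13, adjusted p = 4.44e-09). DCN was at 0.509, 0.517 and 1.44 TPM against 72.7, 109 and 154 TPM and needed the low purity wells to pass the filter. LUM, the related proteoglycan lumican, fell (-4.62), as did POSTN, periostin of activated fibroblasts (-4.53). FN1, fibronectin, was at 2932, 1491 and 1943 TPM in high and 1873, 2198 and 2701 TPM in low purity wells (0.23, adjusted p = 0.258). PDGFRA, a growth factor receptor of mesenchyme and cardiac progenitors, was at 111, 89.1 and 85.5 TPM against 81.9, 113 and 141 TPM (0.16, adjusted p = 0.00901). These 2 and the intermediate filament VIM (-0.75) were among the 4 members not called.

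Epicardial genes were lower in high purity wells for 6 of 9 tested and higher for 0 (median -1.62). With edgeR, DESeq2 or a pseudocount of 0.1, 7 were lower and SEMA3D, a semaphorin, was higher (medians -3.20, -3.19 and -3.20). SEMA3D was at 0.95 and not called in the 11 wells by limma, and it was also called higher on day 10 alone, where 4 of 8 were lower (median -1.94), and without either high purity well of day 13, where 5 of 9 were lower. The summed TPM of the list was 55.9 to 63.4 in high and 540 to 694 in low purity wells. WT1 (chr11:32387775-32435539), a zinc finger factor of the epicardium, was at 1.30, 2.69 and 2.70 TPM in high and 93.7, 103 and 119 TPM in low purity wells, without overlap (log2 fold change -4.88, SE 0.10, adjusted p = 4.40e-10). TCF21, of epicardial cells that become fibroblasts, fell (-3.39), as did BNC1, basonuclin (-3.17). TBX18, given above, belongs to this list too, at -3.93. ITLN1, an omental lectin, had 0 reads in the high purity wells and 83 in the low purity wells, at least 7.57-fold lower. With ITLN1 at that bound the median of the list was -2.92. TCF21, ITLN1 and UPK3B needed the low purity wells to pass the filter.

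Smooth muscle genes were called lower for 4 of 7 tested (median -1.04), and for 2 on day 10 alone. ACTA2, smooth muscle actin, which early cardiomyocytes also express, was at 147, 78.4 and 98.1 TPM in high purity wells. It was at 437, 359, 401 and 329 TPM on day 10 and 502, 512, 524 and 527 TPM on day 13 in low purity wells (log2 fold change -1.81, SE 0.23, adjusted p = 8.76e-05), without overlap. TAGLN (-1.80) and CALD1 (-1.56), which encode actin binding proteins, fell too. MYH11, the smooth muscle myosin, was listed at 0 in all 11 wells. The counts of these lists stand beside those of the cardiac lists in the plot of log2 fold changes by list.

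**Figure D2:**
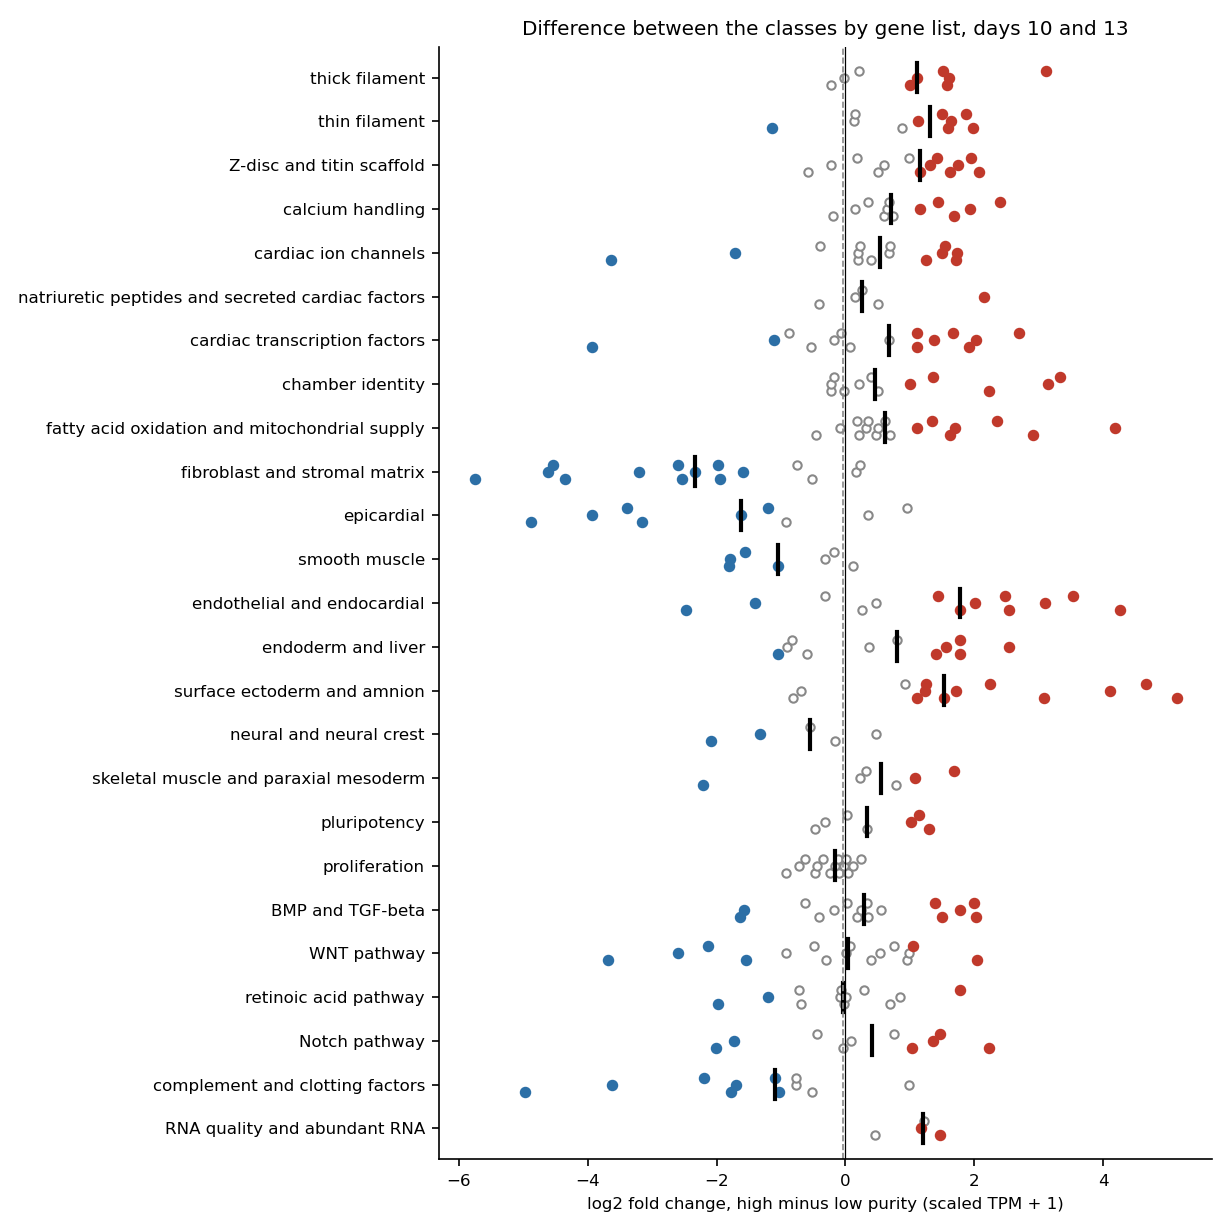
Log2 fold change, high minus low purity, of the tested members of 25 gene lists (horizontal axis; 1 point a gene; red, called higher; blue, called lower; open, not called; black tick, median of the list; dashed line, median of all genes tested). The sarcomere lists have medians of 1.10 to 1.31 and the fibroblast and epicardial lists medians of -2.34 and -1.62.

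Endothelial genes were divided. Of 13 tested (15 listed), 8 were called higher and 2 lower (median 1.77), but 6 of the 8 (CD34, CDH5, ESM1, PECAM1, SOX17 and TIE1) needed the high purity wells to pass the filter. Of the 7 that did not, 2 were higher and 2 lower. CDH5, the cadherin of endothelial junctions, was at 17.1, 7.66 and 7.32 TPM in high and 0.185, 0.562 and 1.35 TPM in low purity wells, all apart (log2 fold change 3.09, SE 0.24, adjusted p = 2.34e-06). PLVAP was at 37.2, 13.1 and 15.3 TPM against 0.359, 1.41 and 2.31 TPM, likewise apart. KDR, the VEGF receptor of endothelium and its mesodermal precursors, was lower without overlap, at 82.4, 38.3 and 42.2 TPM in high and 150.4, 177 and 205 TPM in low purity wells (-1.41, adjusted p = 1.06e-04). TEK, the angiopoietin receptor, fell by 2.48. With at least 5 TPM required in 3 wells, 3 of 7 were higher and 2 lower, and without any 1 of the high purity wells 5 of 10 were higher and 2 lower, since fewer genes passed the filter. The summed TPM of the list was 228 in the high purity well of day 10 and 217 to 239 in the low purity wells. On day 13 it was 113 to 120 in high and 191 to 255 in low purity wells.

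Of 13 surface ectoderm and amnion genes tested (17 listed), 10 were called higher and 0 lower (median 1.52), 6 of them (GABRP, GRHL2, TFAP2A, TFAP2B, TFAP2C and VTCN1) with the help of the high purity wells in passing the filter. Of the 7 that needed no such help, 4 were higher. VTCN1 was at 20.1, 23.8 and 28.2 TPM in high and 0, 0.120 and 0.459 TPM in low purity wells. EPCAM, an epithelial adhesion protein, was at 231, 135 and 156 TPM against 23.0, 55.9 and 74.5 TPM (2.25, adjusted p = 3.89e-06). Both genes had every high purity well above every low purity well. The keratins KRT8 (-0.69) and KRT18 (-0.82) of simple epithelia were not called. They carry most of the list's TPM, so that its sum was 3102 to 4425 in high and 4924 to 5916 in low purity wells. Without the day 10 high purity well, 8 genes were tested, of which 3 were higher and 1 lower. Without well 2 of day 13 there were 6 higher of 8, and without well 3 there were 5.

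Endoderm and liver genes were called higher for 5 of 11 tested and lower for 1 (median 0.81). Their summed TPM went the other way on day 10, at 1106 in the high purity well and 2463 to 3010 in the low purity wells. On day 13 the sum was 803 to 833 in high and 679 to 1533 in low purity wells. FOXA2, a forkhead factor of endoderm, was at 55.8, 12.5 and 10.8 TPM in high and 1.36, 5.14 and 7.52 TPM in low purity wells, without overlap (log2 fold change 2.54, SE 0.29, adjusted p = 4.38e-05). TTR, transthyretin, rose by 1.78 and SOX17, a factor of endoderm and endothelium, by 1.77. SOX17 needed the high purity wells to pass the filter. AFP, alpha-fetoprotein, was at 323 TPM on day 10 in the high and at 2091, 1880.4, 2299.7 and 2197 TPM in the low class. The day 13 levels were 589 and 535 TPM and 505, 1233, 768 and 903 TPM. It was called lower (-1.05, adjusted p = 0.0311) although its groups overlapped on day 13. That call was lost on day 13 alone (-0.31), without the day 10 high purity well (-0.32), without well 2 of the low purity class on day 13 (-0.99), and by edgeR (-0.95) and DESeq2 (-0.94) on recovered reads. Day 10 alone gave 4 members higher and 3 lower, with a median of -0.14, and the data without TMM scaling 5 and 3.

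Few genes of other lineages passed the filter. Of 5 neural genes tested (12 listed), 2 were lower: STMN2 (-2.09), a tubulin binding protein of neurons, and TUBB3 (-1.32), a neuronal tubulin. STMN2 needed the low purity wells to pass the filter. Of 6 skeletal muscle and paraxial mesoderm genes tested (12 listed), TCF15 (1.69) and PAX3 (1.08) were higher and MEOX1 (-2.22) lower, each needing the higher class to pass the filter. Without well 2 of high purity day 13 none of the 6 was called higher, and without TMM scaling 1 was. Of 7 pluripotency genes tested (10 listed), L1TD1 (1.30), LIN28A (1.14) and ZFP42 (1.02) were higher, with 1 call left without TMM scaling. POU5F1, the defining factor, was at 0 to 0.403 TPM in the 11 wells. It was also only at 0.157 to 0.804 TPM in the 8 wells of day 0, so its level here cannot show a loss of pluripotency. Of 11 blood genes 1 passed the filter and was not called. None of 15 proliferation genes was called (median -0.17), and CDK1, the mitotic kinase, was at -0.93 (adjusted p = 1.65e-04). Their summed TPM was 722 in the high purity well and 952 to 1087 in the low purity wells on day 10. On day 13 it was 318 to 357 against 470 to 621. Without TMM scaling 2 of the 15 were called lower, and without the day 10 high purity well 1 was.

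Signalling genes changed in both directions. In the BMP and TGF-beta list 5 of 16 tested were higher and 2 lower (median 0.28). Of the ligands, BMP7 (1.99) and BMP2 (1.49) rose, while BMP4, the ligand of lateral mesoderm (-1.64), and BMP10, the ligand of trabecular myocardium (-1.57), fell. NOG, the secreted BMP antagonist, rose by 2.03 and the target ID1 by 1.78. BMP4 was at 29.4, 29.1 and 32.6 TPM in high and 102, 123 and 144 TPM in low purity wells, and NOG at 22.6, 9.30 and 14.7 TPM against 1.72, 4.00 and 5.09 TPM. The groups of both genes did not overlap on either day.

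In the WNT list 2 of 16 tested (17 listed) were higher and 4 lower (median 0.03). The members DKK2 and LGR5 needed the low purity wells to pass the filter, and 1 of them was among the 4 lower. Among the other 14, 2 were higher and 3 lower. The ligands WNT5B (2.04) and WNT2 (1.05) rose. The secreted inhibitors FRZB (-3.69) and SFRP5 (-2.13) and the ligand WNT2B (-2.60) fell most. FRZB was at 11.7, 11.7 and 9.48 TPM in high and 134, 199 and 270.0 TPM in low purity wells. The groups of FRZB did not overlap on either day. Without either of the high purity wells of day 13, 4 were higher and 4 lower, and without that of day 10, 1 and 4. The edgeR and DESeq2 tests gave 4 and 4, and day 10 alone 5 and 5.

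Of 12 retinoic acid genes tested (14 listed), 1 was higher and 2 lower (median -0.04). CYP26A1, which degrades retinoic acid, rose by 1.77 and needed the high purity wells to pass the filter. RDH10 (-1.98) and ALDH1A2 (-1.21), which make retinoic acid in consecutive steps, were lower. Without either of the high purity wells of day 13, 1 member was called lower. In the Notch list 4 of 10 tested (12 listed) were higher and 2 lower (median 0.42). The ligands DLL4 (1.47, which needed the high purity wells to pass the filter) and JAG2 (1.03) and the targets HEY1 and HEY2 (1.36) rose, while the target HEYL (-2.01) and the receptor NOTCH2 (-1.74) fell.

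Complement and clotting genes were called lower for 7 of 11 tested (12 listed) and higher for 0 (median -1.10). Their summed TPM was 135 in the high purity well of day 10 against 328 to 354 in low purity wells. On day 13 it was 127 to 128 against 537 to 595. PLAT, tissue plasminogen activator, was at 5.93, 2.83 and 3.78 TPM in high and 56.9, 80.6 and 102 TPM in low purity wells (log2 fold change -3.63, SE 0.15, adjusted p = 2.66e-08). The groups of PLAT did not overlap on either day. THBD, the thrombin receptor thrombomodulin, fell (-2.20), as did CFI, which cleaves complement C3b and needed the low purity wells to pass the filter (-4.98).

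For 12 cardiomyocyte genes an exact two-sided permutation test was run with purity labels exchanged within each day, which allows 75 assignments and no p below 0.0133. TNNT2, MYH6, MYL7, TNNI1, TNNI3, NKX2-5 and PLN reached that smallest p (0.0229 after Benjamini-Hochberg adjustment over the 12). The exact permutation p was 0.133 for NPPA and for NPPB, 0.307 for SLN, 0.507 for MYH7 and 0.933 for MYL2.

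The single high purity well of day 10 could be set against the day 13 result. Of 2471 genes called on day 13 alone, 2340 (94.7%) had the same sign on day 10. In 2187 (88.5%) that well lay beyond all 4 low purity wells in the same direction, and in 1704 (69.0%) the day 10 difference was at least 1. Among all 21030 genes tested the same 3 shares were 73.7%, 59.9% and 19.3%. The 2 days belong to the same pair of differentiations.

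The difference between the classes changed from day 10 to day 13 for 519 genes (2.47% of 21030), of which 329 became more positive (1.56%) and 190 more negative (0.903%). This test rests on 1 high purity well on day 10. Without well 2 of the high purity class on day 13 the number was 258, and without well 4 of the low purity class on day 13 it was 340. Without TMM scaling 85.1% of the calls were positive, against 63.4% with it, and the median change of all genes was 0.20 against 0.02. With no filter 52.3% were positive. The largest changes by the rule were in microRNA genes with at most 20 reads a well: MIR601 (6.56), MIR1271 (5.90), MIR4720 (5.61), MIR320C2 (5.42) and MIR4513 (5.22), and in the other direction MIR1343 (-5.71). NPY, a neuropeptide precursor of sympathetic neurons, followed at -4.01 (SE 0.36, adjusted p = 0.00187). NPY was at 104 TPM in the high purity well of day 10 and at 28.0, 30.1, 28.6 and 49.9 TPM in the low purity wells. By day 13 the levels were 19.1 and 15.4 TPM and 86.7, 69.0, 82.4 and 85.7 TPM. Its order was thus reversed between the days, without overlap on either.

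CRHBP, a binding protein of corticotropin releasing hormone, changed by -2.75, OXTR, the oxytocin receptor, by -2.56 and the long non-coding RNA LINC00114 by -2.46. Protein-coding genes are named in addition, chosen after their values were seen. SLN (2.64, adjusted p = 0.0389), the lipoxygenase ALOX15 (2.47), the thrombin inhibitor SERPIND1 (2.17), the sulfotransferase SULT1E1 (1.98) and the liver glycoprotein AHSG (1.96) had the largest positive changes. On the negative side DLK1, a delta-like protein of progenitors, was at -2.37 and TPPP3 at -2.01. Of the members of the lists, AFP (1.95) and KCNJ3 (1.44) changed towards the high purity side. ALDH1A2 (-2.22), CFI (-1.99), ACTA2 (-1.41) and KDR (-1.10) changed towards the low purity side. By list, 5 of 11 complement genes changed negatively and 1 positively, 3 of 12 retinoic acid genes and 3 of 16 BMP and TGF-beta genes negatively, and 2 of 11 endoderm genes positively. MYH6 gave -0.51 (adjusted p = 0.593) and TNNT2 -0.31 (adjusted p = 0.672), neither called.

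**Figure D3:**
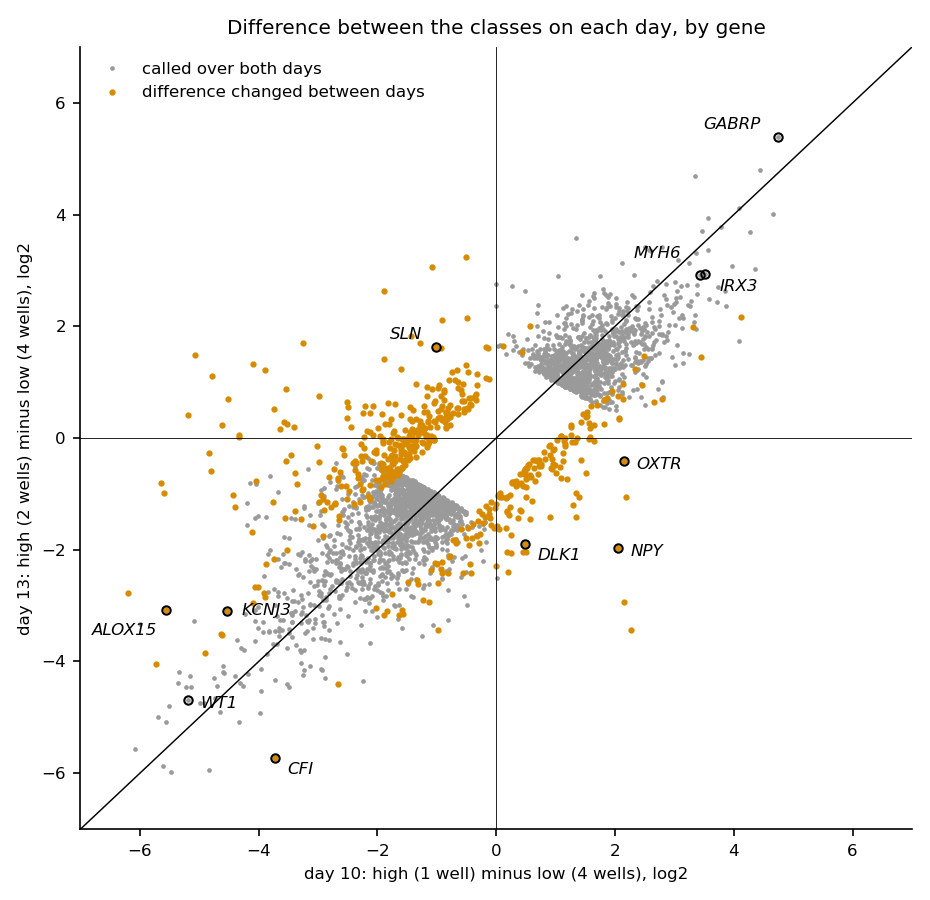
High minus low purity difference on day 10 (horizontal axis) and on day 13 (vertical axis), both as log2 fold change of TMM-scaled TPM, for genes called over both days (grey) and genes whose difference changed between days (orange; line, equal differences). NPY, SLN, OXTR and DLK1 have differences of opposite sign on the 2 days. On deposited TPM the high purity well of day 10 lay within the range of the low purity wells for DLK1.

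Within the low purity class, which had 4 wells on each day, 520 genes differed between day 13 and day 10 (2.47%), 262 higher (1.25%) and 258 lower (1.23%) on day 13. Without TMM scaling there were 619, and 34.2% of them were higher, against 50.4% with it; the median of all genes was then -0.11. TMEM176B, a membrane protein of myeloid cells, rose most (2.76), followed by LOC107987133 (2.38), SPHKAP, a kinase anchor of heart and brain (2.38), CFI (2.16) and the matrix protein THBS2 (2.15). THBS2 was at 3.65, 3.59, 4.38 and 4.75 TPM on day 10 and at 17.1, 23.0, 21.2 and 18.9 TPM on day 13, so every day 13 well was above every day 10 well. A transfer RNA gene (TRL-TAG1-1) and MIR325, each with at most 8 reads a well, fell most, followed by the alcohol dehydrogenase ADH1B (-3.07), HABP2 (-2.72) and AKR1D1 (-2.45). ADH1B was at 21.5, 19.3, 21.3 and 22.5 TPM on day 10 and 0.662, 2.28, 1.52 and 1.41 TPM on day 13, without overlap. In addition, and chosen after values were seen, ALOX15 (-2.11) fell and PTPRQ, a receptor phosphatase, rose (2.07). Of 11 endoderm and liver genes 6 fell and 0 rose, of 11 complement genes 3 rose and of 12 retinoic acid and 9 epicardial genes 2 each rose. MYH7 rose by 1.77 (SE 0.30, adjusted p = 0.00327), from 161, 185, 199.8 and 86.1 TPM to 287, 632, 543 and 498 TPM. MYH6 was at -0.04 (adjusted p = 0.939) and its groups overlapped.

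The difference between the classes on days 10 and 13 was then set against that on day 8, from 3 high and 4 low purity wells, and on day 16, from 3 of each. All wells of a class came from the same differentiation. Against day 8 the difference had changed for 800 of 25664 genes tested (3.12%), 347 towards the high purity side (1.35%) and 453 towards the low purity side (1.77%). From there to day 16 it changed for 1014 (3.95%), 395 towards the high (1.54%) and 619 towards the low purity side (2.41%). The largest changes by the rule lay mostly in short non-coding genes with few reads. They were MIR8075, TRY-GTA5-5, MIR5692B, LOC107986200 and MIRLET7A2 in the positive and SNORD114-8, TRN-GTT11-2, SNORD113-2, SNORD4B and NPY (-4.16) in the negative direction against day 8. From there to day 16 they were MIR4786, MIR30C2, MIR18B, MIR5003 and SNORD4B, and SNORA35B, MIR708, SNORD114-1, NPY (-4.02) and SNORD14B. The coding genes named next were chosen after their values were seen.

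Towards the high purity side since day 8 went TFAP2A (2.89), VTCN1 (2.60), the skeletal actin ACTA1 (2.82), the cystine transporter SLC7A11 (2.52) and the monooxygenase MOXD1 (2.48). The natriuretic peptide NPPB (1.81) and MYH6 (1.32) were called in that direction as well. Mean MYH6 was 3259, 4356, 3162 and 3991 TPM in high purity wells on days 8, 10, 13 and 16, with 1 well on day 10, and 1098, 559, 501 and 359 TPM in low purity wells. By these means MYH6 was lower on each later day in low purity wells and showed no such order in high purity wells. Towards the low purity side went the WNT inhibitor SFRP2 (-3.51), DLK1 (-3.38), the opioid precursor PENK (-2.99), CFI (-2.97), TTR (-1.97) and the atrial potassium channel KCNA5 (-1.37). Of 14 surface ectoderm and amnion genes 5 went towards the high purity side and 1 towards the other.

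From days 10 and 13 to day 16 the difference became smaller for several of the genes that were higher in high purity wells. For GABRP it changed by -2.14, VTCN1 by -2.18, LPL by -2.60 and CA3 by -2.42. Mean GABRP was 6.83, 31.6, 44.9 and 8.90 TPM in high purity wells on days 8, 10, 13 and 16 and by mean at most 0.675 TPM in low purity wells. LPL followed with 5.86, 12.2, 24.6 and 1.97 TPM against a mean of at most 0.661 TPM in low purity wells. Both were thus highest on day 13 among the days compared. Of 14 surface ectoderm and amnion genes 7 changed towards the low purity side, of 11 complement genes 6, of 15 endothelial genes 5 and of 11 endoderm genes 4, and none of these lists had a change in the other direction. Lists that were mostly not higher in high purity wells moved this way too. They were 4 of 14 retinoic acid, 3 of 9 epicardial and 3 of 7 smooth muscle genes, with 0 in the other direction. In the fibroblast and matrix list 4 of 15 changed towards the low and 1 towards the high purity side. ALDH1A2, the epicardial retinaldehyde dehydrogenase, changed by -3.16, DLK1 by -3.49, the granin SCG2 by -2.89 and CRHBP by -2.75. ALOX15 (2.03), KNG1 (1.72), SHISAL1 (1.67), KLRB1 (1.62) and DEFB131B (1.50) changed most towards the high purity side. Mean ALDH1A2 in low purity wells was 0.871, 1.80, 9.10 and 33.6 TPM on the 4 days, and at most 1.61 TPM by mean in high purity wells. Mean NPY was 552, 104, 17.3 and 4.04 TPM in high purity wells over the same days and 35.1, 34.2, 81.0 and 85.9 TPM in low purity wells.

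**Figure D4:**
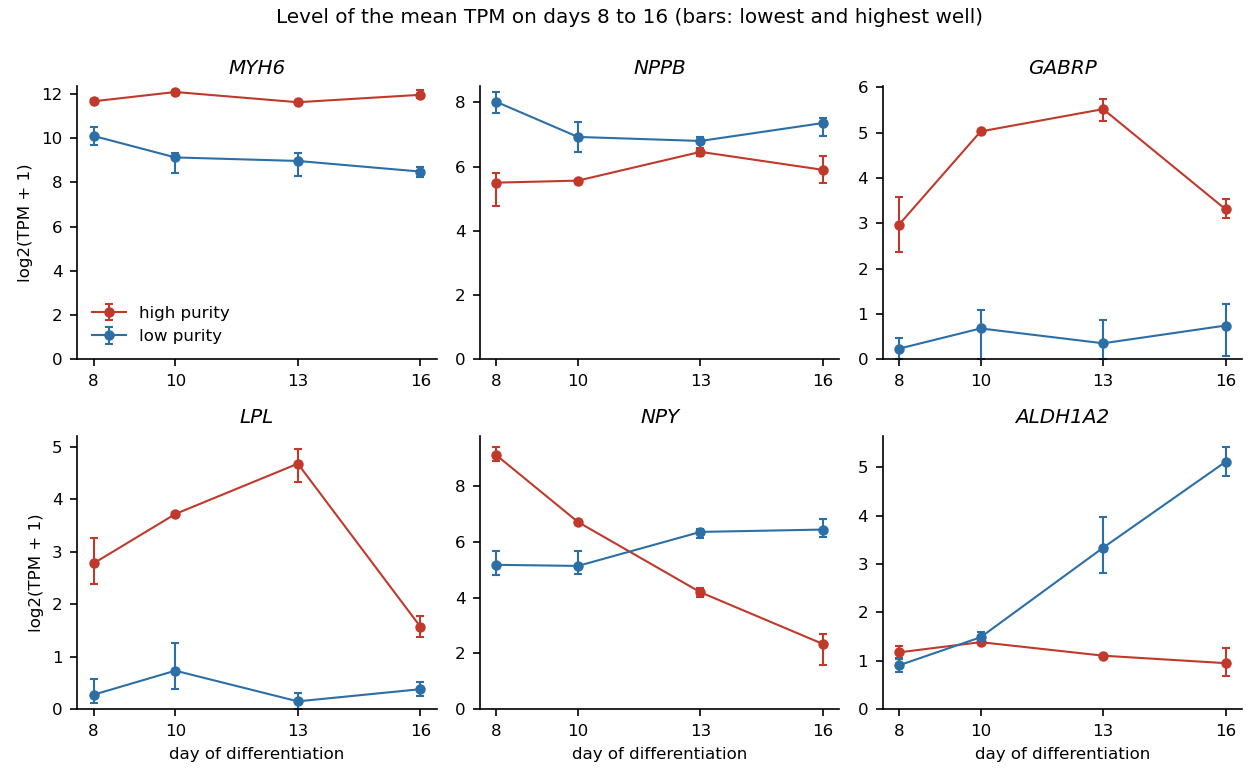
Level of 6 genes on days 8, 10, 13 and 16, as log2 of mean deposited TPM + 1 on the vertical axis (red, high purity; blue, low purity; bars, lowest and highest well; 1 high purity well on day 10). MYH6 stays high in high purity wells and is lower later in low purity wells, GABRP and LPL are highest on days 10 and 13 in high purity wells, and the lines of NPY cross between days 10 and 13.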

How the data were processed

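RNA of 11 wells was measured with a poly(A) kit, and the reads included RNA without a poly(A) tail such as RN7SK. The authors deposited TPM per gene and read counts per gene for this experiment. Per the submitters' processing notes, STAR 2.5.3a, featureCounts 2.0.3 and hg38 were used. How TPM was made from counts is not given in the sources used here. The deposited counts of this experiment were not used, because their column names did not match; the deposited counts and TPM of the RNA-only experiment served to solve gene lengths, leaving out 36 broken lines. With these lengths 37194 genes gave whole reads from TPM (100% of values, tolerance 0.02 reads), and the other genes held at most 0.234% of TPM. Main test: limma 3.58.1 (trend) on log2(TMM-scaled TPM + 1) in R 4.3.3, day as covariate, 8 residual degrees of freedom, Benjamini-Hochberg adjusted p under 0.05 and log2 fold change of at least 1. A fold change on this scale understates that of low genes. Change between days was an interaction term, and days 8 and 16 came from a fit of all 56 wells. edgeR 4.0.16 and DESeq2 1.42.0 on the recovered reads were alternatives. The main test was tried on simulated reads with known changes and the same spread for every gene. The other fits were not tried in this way.

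Members, lists and the rule for named genes were chosen with earlier results of these data known. The rule took the 10 coding and 2 non-coding genes with the largest calls each way, with a mean of at least 10 TPM in the higher class and no overlap on either day, up to 3 calls each way per list, 12 cardiomyocyte genes and, for each later comparison, 5 each way. Genes named beyond it were chosen after their values were seen. Gene positions and promoters are from RefSeq on GRCh38.p14. Permutation tests used scipy 1.17.1.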

Additional observations from a re-analysis of the deposited data

Results flagged for a closer look

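The genes named and the measures of each well gave 81 sets of 4 low purity wells, of which 6 had 1 well apart, all on day 10, by the share of the group's range that separates it from the nearest other well (the 95% limit of Dixon's ratio, which chance passes in about 1 group in 20). Well 4 was the lowest for MYH6 (share of the range 0.885), MYL7 (0.870) and CA3 (0.925) and the highest for NPNT (0.903). MYH6 was at 348 TPM in well 4 and at 616 to 641 TPM in the other 3. Well 1 held 4 reads of MIR208A and the other 3 wells 0, so that the gap was the whole range (share 1), and well 3 stood apart with the lowest TMM factor (share of the range 0.837). Without well 4 the call of MYL7 was lost (log2 fold change 0.93).

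The difference between the classes changed from day 10 to day 13, by the interaction test, for SLN (2.64), ALOX15 (2.47), SERPIND1 (2.17), SULT1E1 (1.98) and AHSG (1.96) towards the high purity side. NPY (-4.01), CRHBP (-2.75), OXTR (-2.56), DLK1 (-2.37) and TPPP3 (-2.01) changed towards the low purity side. All values are log2 and rest on 1 high purity well on day 10. OXTR was at 21.3 TPM in that well against 5.09, 5.32, 7.14 and 5.02 TPM in low purity wells, and at 10.3 and 13.8 TPM against 19.1, 19.5, 18.0 and 18.3 TPM on day 13. DLK1 was at 80.1 TPM against 76.0, 79.2, 86.1 and 68.6 TPM on day 10 and at 24.9 and 30.1 TPM against 131, 115, 122 and 111 TPM on day 13.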

How the results depend on the processing

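The count of genes called between the classes was 2807 and ranged from 2045 (at least 5 TPM) to 3968 (pseudocount 0.1) over the alternatives other than dropping the fold threshold, which gave 9816. Leaving out 1 well at a time gave 2642 to 2954. edgeR called 3744 and DESeq2 3692, of which 2631 and 2601 were shared with the main calls. Of the 12 cardiomyocyte genes 5 to 7 were called under each alternative, 7 only without the fold threshold. Without a fold threshold the change between days was called for 1331 genes, the low purity time change for 4482, the comparison with day 8 for 3265 and that with day 16 for 4493. With a pseudocount of 0.1 the change between days gave 830 and the low purity time change 885. Leaving out 1 well gave 258 (without well 2 of high purity day 13) to 563 for the change between days, with 340 without well 4 of low purity day 13, and 448 to 581, 732 to 904 and 910 to 1138 for the other 3. These comparisons, apart from the low purity one, could not be estimated without the only high purity well of day 10. The cause of these shifts was not tested, apart from the dropped threshold and the wells left out.

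MYL2 changed sign on day 10 alone (0.55), in the fit over all 56 wells (0.072) and on leaving out 1 well (-0.36 to 0.32), and was called in none. SLN was at -0.99 on day 10 alone and was called on day 13 alone (1.62) and without the day 10 high purity well (1.63). PLN was called under 1 alternative and MYL7 was lost under 8 (leaving out 1 well, 0.65 to 1.18).

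Well numbers are shared between groups. Deviations of same-numbered low purity wells of days 10 and 13 had correlations of -0.03 to 0.01, and those of differently numbered wells -0.05 to 0.09. The labels do not say whether equal numbers mark a shared plate, and so few pairs cannot decide it. With the well number as a replicate block 2474 genes were called, 2305 of them shared, 15 of 32 sarcomere genes among those higher (MYOM1 lost at 0.92), and 503 for the low purity time change. Depth limits the short non-coding genes named, which had few reads a well.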

Other observations

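Gene families outside the lists were looked at after their values were seen, so the counts describe them and support nothing further. Among all genes tested 5.32% were called higher and 8.03% lower. Of the 5186 genes that needed the low purity wells to pass the filter, 862 were called lower. All 5 tested Iroquois homeobox genes were called higher in high purity wells (median log2 fold change 3.15, range 2.28 to 3.90), as they were without TMM scaling. IRX1 was at 3.90, IRX5 at 2.57 and IRX2 at 2.28, beside IRX4 and IRX3. HOX genes, which set position along the body axis, went the other way: 15 of 20 tested were called lower and 0 higher (median -1.74), and 16 of the 20 needed the low purity wells to pass the filter. They came from all clusters, with 2 of 5 HOXA, 7 of 9 HOXB, 4 of 4 HOXC and 2 of 2 HOXD genes lower. After HOXC8 the largest falls named here were in HOXB6 (-3.35), HOXB5 (-2.76) and HOXB3 (-2.33). On day 13 alone 19 of 19 HOX genes tested were lower, and on day 10 alone 12 of 18.

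The glucose transporter SLC2A3 was at 2198, 1219 and 1408 TPM in high purity wells and at 158, 265 and 386 TPM in low purity wells. Every high purity well was above every low purity well (log2 fold change 2.91). SLC2A4, the insulin regulated transporter of muscle, rose by 2.15 and SLC2A14 by 1.84, a close copy of SLC2A3 with which reads may be shared, while SLC2A1 was at 0.97 and was not called. Of 10 SLC2A genes tested, 3 were called higher and 0 lower (median 0.47). Of 11 FGF ligands tested, FGF8 (1.75), FGF10 (1.47), FGF11 (1.93) and FGF18 (1.43) were called higher and none lower. Both insulin-like growth factors fell, IGF1 at -1.34 and IGF2 at -2.16, although IGF1 needed the low purity wells to pass the filter and 1 of the 2 was called on day 10 alone. Of 37 collagen chain genes 16 were called lower and 2 higher (median -0.68), and 8 of the 37 needed the low purity wells to pass the filter. Without TMM scaling 17 were lower and 0 higher.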
